A study of Mus musculus with 6 samples.

Results

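Spi1 (also called PU.1), the C/EBP factors Cebpa, Cebpb, Cebpd and Cebpe, the interferon regulatory factors Irf8, Irf4 and Irf5, and the Krüppel-like factor Klf4 were followed in RNA-seq libraries of mouse CD8T cells. These 9 transcription factors were taken by gene name from the 54532 genes of the count table, and all 9 passed the filter on low counts. The CD8T cells came from mouse spleens by way of an isolation kit, were stimulated on beads that carry anti-CD3 and anti-CD28, and were then cocultured with IFN-γ-activated macrophages, which the study obtained from the peritoneum after thioglycolate injection. In the control group (3 samples) the macrophages had not received DB2313, a small-molecule Spi1 inhibitor, and in the DB2313 group (3 samples) they had. GEO's labels divide the samples in the same way but name the cocultured cells as DC cells. Neither the age and strain of the mice for these cultures nor the way the CD8T cells were separated from the cocultured cells is given in the sources used here, and the sources do not say whether the replicates were separate cultures, so p-values measure the spread between these samples only, which may be technical. The comparison asks how the RNA collected from CD8T cells differed when the Spi1 inhibitor had been applied to the cocultured cells.

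Spi1 is an ETS-domain transcription factor that myeloid cells and B cells need for their development, and it opens and activates genes of macrophages such as the receptor for macrophage colony-stimulating factor. C/EBP factors are leucine zipper proteins that bind DNA as dimers: Cebpa starts granulocyte and monocyte development, Cebpe acts late in granulocytes, and Cebpb and Cebpd are induced by inflammation. Irf8 and Irf4 bind DNA weakly alone and pair with Spi1 on composite sites, and mature T cells normally keep Spi1 low.

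Library totals ranged from 16611975 to 18596217 counts, and the least counted of the 9 factors, Klf4, had 128 to 254 counts in a library. Genes of other cell types were counted in all 6 libraries. The 18 macrophage markers took 1.46% to 1.49% of the counts in the control group and 0.688% to 0.708% in the DB2313 group. Of the 17 tested, 16 fell and Marco rose, and Vsig4 was at 0 in every library. All 18 T cell markers rose with TMM scaling, and their share went from between 0.239% and 0.241% to between 0.388% and 0.395%. Neutrophil markers went from between 0.195% and 0.196% to between 0.0727% and 0.0746%, dendritic cell markers from between 0.403% and 0.409% to between 0.287% and 0.29%, and progenitor granule markers from between 0.0562% and 0.0583% to between 0.102% and 0.104%. Within these lists, 10 neutrophil markers fell and Retnlg, at under 1 CPM, rose, and 8 dendritic cell markers fell and Flt3 rose. Of the 6 progenitor markers 5 rose, while Cd34, a surface protein of stem and progenitor cells, fell from 59.3 ± 3.08 to 7.30 ± 0.382 CPM (SD, n = 3 each), a log2 fold change of -3.02 and the largest of that list. By group mean CPM, the most abundant gene of these lists was, in both groups, Lyz2 for macrophages, Lck for T cells, Ccl22 for dendritic cells and Mpo for progenitors. For neutrophils it was S100a9 in the control group, at 514 CPM beside 511 CPM for S100a8, and Mmp8 with DB2313, at 273 CPM. This ranking is not corrected for gene length. Per kilobase in the control group, Ctsg, Elane and Prtn3, at 104, 101 and 59.2, stood above Mpo at 43.4. On that measure S100a9 stood at 984 and Mmp8 at 136. Myeloid RNA was thus counted in every library, and the part of these differences in the results on the 9 factors was not tested. In bulk RNA, fewer cells of a type and less RNA per cell cannot be told apart.

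Levels are given in CPM, read counts scaled to library size after TMM (trimmed mean of M values) normalization, and fold changes are DB2313 minus control on the log2 scale. With adjusted p below 0.05 in edgeR's quasi-likelihood test over 14883 genes, 8 of the 9 factors were lower in the DB2313 group and Cebpa was higher, although Cebpa was lower with scaling to the T cell markers. Among all tested genes, 24.6% were lower and 20.8% were higher by the same rule, or 45.4% in either direction. With the additional condition of an absolute log2 fold change above 1, Irf8, Irf4 and Irf5 were called, 3 of 9 and all of them lower, against 6.67% of all tested genes, of which 5.30% were lower and 1.37% higher. Control and DB2313 libraries did not overlap for any of the 9 factors, and they did not for 53.1% of all tested genes. The median log2 fold change of the factors was -0.56, and that of all tested genes was 0.019. By an exact permutation test, each single factor reaches p = 0.1, the smallest that 3 against 3 samples allow.

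**Figure D1:**
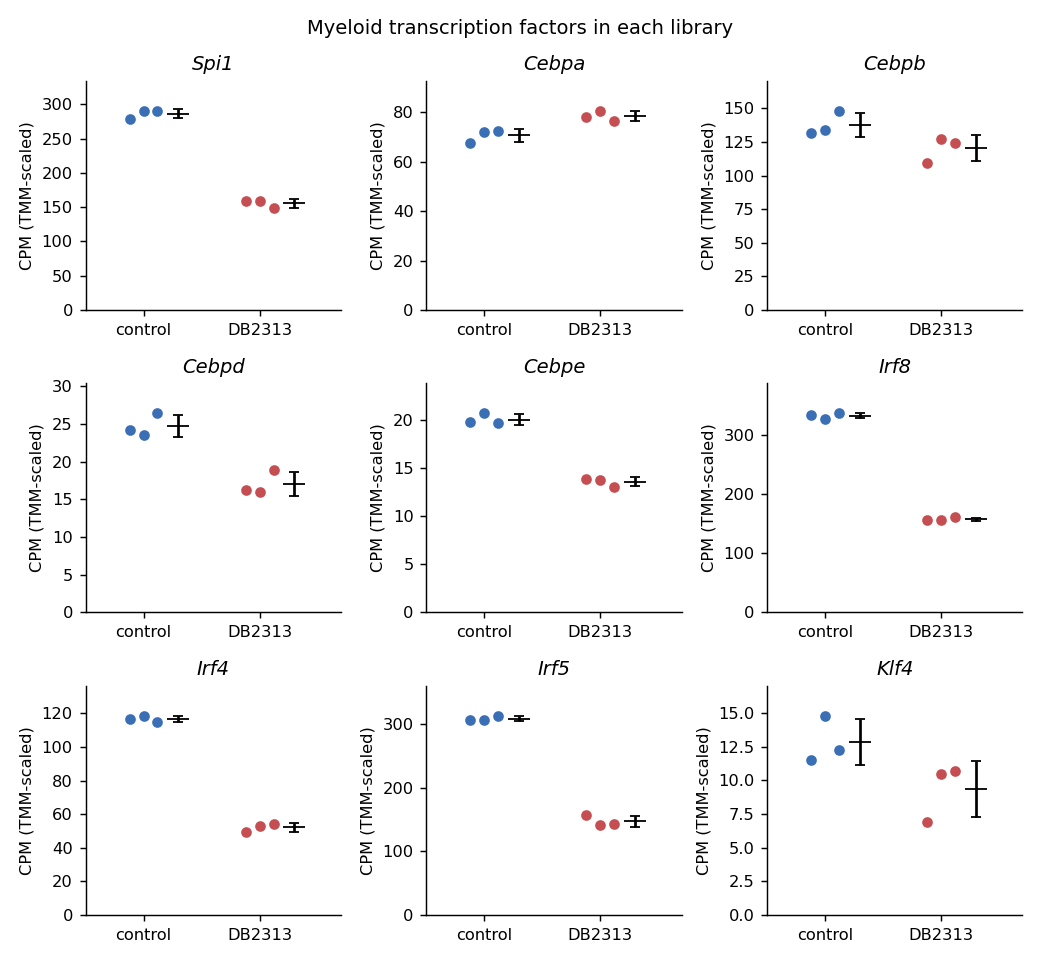
TMM-scaled CPM (vertical axis, from 0) of each factor in the 3 control (blue) and 3 DB2313 (red) libraries. Points are libraries, and the black bar with whiskers is the mean ± SD (n = 3). Spi1 lay between 279 and 291 CPM in the control group and between 148 and 159 with DB2313, and Cebpa is the factor whose DB2313 libraries lay above the control libraries.

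Spi1 (ENSMUSG00000002111, plus strand of chromosome 2 of GRCm38 from 91082390 to 91115756) had 279, 289.9 and 291 CPM in the control libraries and 159, 159 and 148 CPM in the DB2313 libraries. Its group means were 286 ± 6.75 and 156 ± 6.20 CPM (SD, n = 3 each), so the DB2313 level was 54.3% of the control level. This is a log2 fold change of -0.88, with a standard error of 0.037 (adjusted p = 2.58e-15, edgeR's test). The gap between the groups was many times the spread within them, although Spi1 stayed short of the threshold of 1 on the fold change. In raw reads, the lowest control library held 4756 Spi1 counts and the highest DB2313 library 2941.

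The interferon regulatory factors had the largest falls of the 9 factors. Irf8 (ENSMUSG00000041515, chromosome 8 from 120736358 to 120756694), which directs monocyte and dendritic cell development, had 335, 328 and 337 CPM in the control libraries and 156, 156 and 161 CPM with DB2313. This puts Irf8 at -1.08 ± 0.034 on the log2 scale (standard error; adjusted p = 1.10e-17, edgeR's test), and it had the smallest relative spread of the factors in the DB2313 group, with a coefficient of variation of 1.90%. Irf4 (ENSMUSG00000021356, chromosome 13 from 30749226 to 30766976), which is induced by T cell receptor signals as well as being a factor of macrophages, dendritic cells and B cells, had 117, 119 and 115 CPM in the control libraries and 49.3, 52.7 and 54.2 CPM with DB2313. Its level with DB2313 was 44.6% of the control level, and its log2 fold change of -1.17 (standard error 0.047, adjusted p = 1.19e-15 in edgeR's test) was the most negative of the 9. Irf5 (ENSMUSG00000029771, chromosome 6 from 29526625 to 29541871), which drives inflammatory cytokine genes downstream of Toll-like receptors, had 306, 306 and 313 CPM in the control libraries and 157, 141 and 143 CPM with DB2313. For Irf5 the log2 fold change came to -1.07 ± 0.039 (standard error; adjusted p = 1.76e-16, edgeR's test). Library size scaling left Irf4 alone past the threshold on the fold change, with Irf8 at -0.99 and Irf5 at -0.97.

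The promoters of these 3 genes and of Cebpa, the factor that went the other way, are shown so that the sequences before their starts can be compared. RefSeq promoter windows were matched for Cebpa, Cebpb, Irf8, Irf4, Irf5 and Klf4 (6 of 9) and not for Spi1, Cebpd and Cebpe. Each run covers 240 bases on GRCm38.p6, from 250 to 11 bases before the RefSeq start, written 5′ to 3′ on the strand of the gene. The positions are chr8:120736108-120736347 for Irf8, chr13:30748983-30749222 for Irf4, chr6:29526375-29526614 for Irf5 and chr7:35119043-35119282 for Cebpa, all on the plus strand. Capitals mark matches on either strand to GAGGAA (an ETS core of the Spi1 type), TTNNGNAAT (C/EBP) and TATAAA (a core promoter element). The composite element of ETS and IRF sites and the IRF repeat element, 10 letters each, were searched as well. The motifs were chosen after values were seen, and the matches marked here do not overlap.
Irf8: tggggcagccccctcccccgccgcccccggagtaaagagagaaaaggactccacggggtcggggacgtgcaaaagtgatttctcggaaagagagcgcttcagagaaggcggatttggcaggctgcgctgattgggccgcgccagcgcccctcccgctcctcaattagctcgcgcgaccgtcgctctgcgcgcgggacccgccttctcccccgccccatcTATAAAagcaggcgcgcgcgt
Irf4: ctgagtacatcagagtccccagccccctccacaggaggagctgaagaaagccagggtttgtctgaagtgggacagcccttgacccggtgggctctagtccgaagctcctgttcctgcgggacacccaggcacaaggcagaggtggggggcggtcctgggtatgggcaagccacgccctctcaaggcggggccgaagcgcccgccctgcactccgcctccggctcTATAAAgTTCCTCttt
Irf5: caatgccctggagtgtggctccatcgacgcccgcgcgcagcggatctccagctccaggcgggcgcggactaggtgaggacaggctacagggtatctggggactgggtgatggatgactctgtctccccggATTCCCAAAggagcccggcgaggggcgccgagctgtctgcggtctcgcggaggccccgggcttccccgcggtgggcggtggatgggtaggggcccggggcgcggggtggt
Cebpa: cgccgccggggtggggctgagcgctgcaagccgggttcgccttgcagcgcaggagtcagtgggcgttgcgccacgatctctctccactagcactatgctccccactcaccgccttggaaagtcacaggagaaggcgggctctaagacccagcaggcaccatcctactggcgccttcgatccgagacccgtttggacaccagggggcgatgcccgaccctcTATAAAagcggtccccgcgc
A TATAAA match lay 31 bases before the start of Irf8, 26 before that of Irf4 and 30 before that of Cebpa, counted from the first base of the match. It was found in 3 of the 6 windows and in 12.1% of 32851 windows of the same length. GAGGAA was found in the Irf4 window alone, where it begins 19 bases before the start on the opposite strand, and in 22.3% of all windows. TTNNGNAAT was found in the Irf5 window alone, against 9.92% of all windows. The GC box GGGCGG, not marked in capitals, was found in 5 of the 6 windows, in Cebpb 5 times, and in 31.3% of all windows. The composite element and the IRF repeat element were in none of the 6, against 2.20% and 2.87% of all windows. GC content was 63.8% to 82.1% in the 6 windows, and the median of all windows was 52.1%. A match is a run of letters and not a bound site, and no binding was measured in these samples.

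The C/EBP factors did not move as a block. Cebpa (ENSMUSG00000034957, chromosome 7 from 35119293 to 35121928) had 67.8, 72.03 and 72.3 CPM in the control libraries and 78.1, 80.6 and 76.6 CPM with DB2313. With TMM Cebpa was at 0.15 ± 0.049 on the log2 scale (standard error; adjusted p = 0.0151, edgeR's test), and it was at -0.46 when libraries were scaled to the T cell markers, a scaling that moved the median of all genes by -0.61. Relative to the median of all tested genes, Cebpa was at 0.13 under both scalings. A change of scaling shifts all genes by about the same amount, so this equality is no check on the rise. The rise was small, and it did not pass the threshold without control replicate 1 (adjusted p = 0.0881) or without DB2313 replicate 2 (adjusted p = 0.0606, both in edgeR's test).

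Cebpb (ENSMUSG00000056501, chromosome 2 from 167688915 to 167690418), the most abundant C/EBP factor, had 132, 134 and 148 CPM in the control libraries and 109.7, 127 and 125 CPM with DB2313. On the log2 scale Cebpb was at -0.19 ± 0.051 (standard error; adjusted p = 0.0033, edgeR's test), and its call was lost with library size scaling, where the adjusted p was 0.106. The highest DB2313 library and the lowest control library of Cebpb lay close together. Tmem189, which runs on the other strand, shares 908 bases with Cebpb and was at -0.36 on the log2 scale (standard error 0.049), and the strand setting of the counting is not given in the sources used here.

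Cebpd (ENSMUSG00000071637, chromosome 16 from 15887286 to 15891031) had 24.2, 23.6 and 26.4 CPM in the control libraries and 16.2, 15.999 and 18.9 CPM with DB2313. On the same scale Cebpd was at -0.53 ± 0.090 (standard error; adjusted p = 3.18e-05, edgeR's test). Spidr, which runs on the other strand over 1808 bases of Cebpd, was at 0.080 on the log2 scale (standard error 0.10), and Tnpo3, likewise over 1045 bases of Irf5, was at 0.056 (standard error 0.051). Cebpe (ENSMUSG00000052435, minus strand of chromosome 14 from 54710360 to 54712174) had 19.8, 20.7 and 19.7 CPM in the control libraries and 13.9, 13.8 and 13.0 CPM with DB2313. Cebpe was at -0.56 ± 0.091 on the log2 scale (standard error; adjusted p = 2.01e-05, edgeR's test), and its groups lay further apart than the spread within either.

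Klf4 (ENSMUSG00000003032, minus strand of chromosome 4 from 55527143 to 55532466), a factor of the monocyte lineage that also restrains division of naive CD8T cells, was the least abundant of the 9. It had 11.5, 14.8 and 12.3 CPM in the control libraries and 6.93, 10.5 and 10.7 CPM with DB2313, and its lowest library was DB2313 replicate 1. A log2 fold change of -0.46 ± 0.14 (standard error; adjusted p = 0.0113, edgeR's test) resulted for Klf4. Its coefficients of variation, 13.2% in the control group and 22.5% with DB2313, were the largest of the factors. Without DB2313 replicate 1 the log2 fold change was -0.28 and without control replicate 2 it was -0.35, and neither passed the threshold (adjusted p = 0.0903 and 0.0988, edgeR's test).

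**Figure D2:**
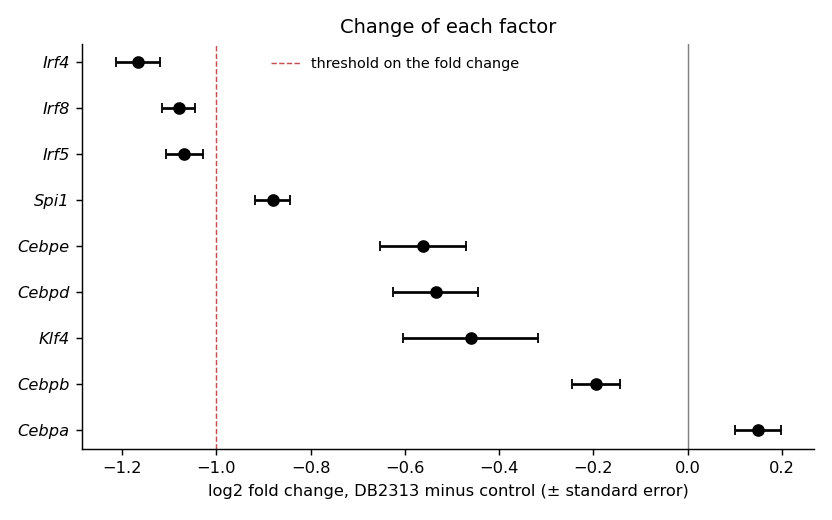
Log2 fold change of each factor (horizontal axis, DB2313 minus control) from edgeR with TMM scaling, with whiskers of 1 standard error. Irf4, Irf8 and Irf5 lie beyond the dashed threshold at -1, Spi1 lies at -0.88, and Cebpa, at 0.15, is the factor to the right of 0, although it lay at -0.46 with scaling to the T cell markers.

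The order of the factors by level was compared per kilobase of the gene length in the count table. In the control group it was Spi1 (106 ± 2.51), Irf5 (106 ± 1.33), Cebpb (91.8 ± 5.92), Irf8 (47.2 ± 0.682), Cebpa (26.8 ± 0.953), Irf4 (23.8 ± 0.357), Cebpe (16.2 ± 0.451), Cebpd (6.60 ± 0.395) and Klf4 (4.22 ± 0.558 CPM per kilobase, SD, n = 3 each). Libraries of neighbours in this order overlapped for Spi1 and Irf5 alone, which do not differ beyond their spread. In the DB2313 group Cebpb came first with 80.2 ± 6.30, ahead of Spi1 with 57.7 ± 2.30 and Irf5 with 50.6 ± 2.91 CPM per kilobase. Cebpa, with 29.8 ± 0.778, stood above Irf8 with 22.3 ± 0.425 CPM per kilobase, the reverse of their order in the control group. Gm20388, annotated on the same strand, covers all 20337 bases of Irf8 and had 0 counts in every library. How reads that fall on both genes were treated is not given in the sources used here, and this may affect the level of Irf8. Cebpe and Irf4 overlapped there, at 10.96 ± 0.387 and 10.6 ± 0.508 CPM per kilobase. Among the 883 tested genes to which the table gives a transcription factor family (Cebpd has none there), Spi1 ranked number 7 by level per kilobase in the control group and number 26 with DB2313, Irf5 numbers 8 and 29, and Cebpb numbers 12 and 14.

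Ratios of read counts within a library do not depend on how libraries are scaled, and 10 ratios between factors were computed. In 9 of them the groups did not overlap, and each of these had p = 0.1 in the exact permutation test (two-sided, 0.111 after Benjamini-Hochberg adjustment over the 10), the smallest the design allows before adjustment. For each Spi1 read there were 0.244, 0.248 and 0.249 Cebpa reads in the control libraries and 0.491, 0.507 and 0.516 with DB2313, a log2 difference of 1.03. The Cebpa to Cebpe ratio went from 3.52 ± 0.135 to 5.77 ± 0.138, and the Cebpa to Cebpb ratio from 0.513 ± 0.0246 to 0.653 ± 0.0517 (SD, n = 3 each). Of the reads of the 4 C/EBP factors, Cebpa took 27.9% ± 0.819 in the control group and 34.2% ± 1.52 with DB2313 (SD, n = 3 each).

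The Irf8 to Spi1 ratio was 1.203, 1.131 and 1.160 in the control libraries and 0.981, 0.978 and 1.085 in the DB2313 libraries. Irf8 reads outnumbered Spi1 reads in every control library, and with DB2313 in replicate 3 alone. These reads are not corrected for gene length. Per kilobase Spi1 lay above Irf8 in both groups, at 106 against 47.2 in the control group and 57.7 against 22.3 with DB2313. The Irf5 to Irf8 ratio was 0.925 ± 0.0110 and 0.933 ± 0.0621 (SD, n = 3 each) and the groups overlapped (exact permutation test, p = 1), a log2 difference of 0.0098. Irf4 to Spi1 went from 0.408 ± 0.0119 to 0.335 ± 0.0279 (SD, n = 3 each). The shares of the 3 interferon regulatory factors among their summed reads moved by less than 1 percentage point, with Irf8 at 43.9% ± 0.343 and 44.2% ± 0.969 (SD, n = 3 each).

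**Figure D3:**
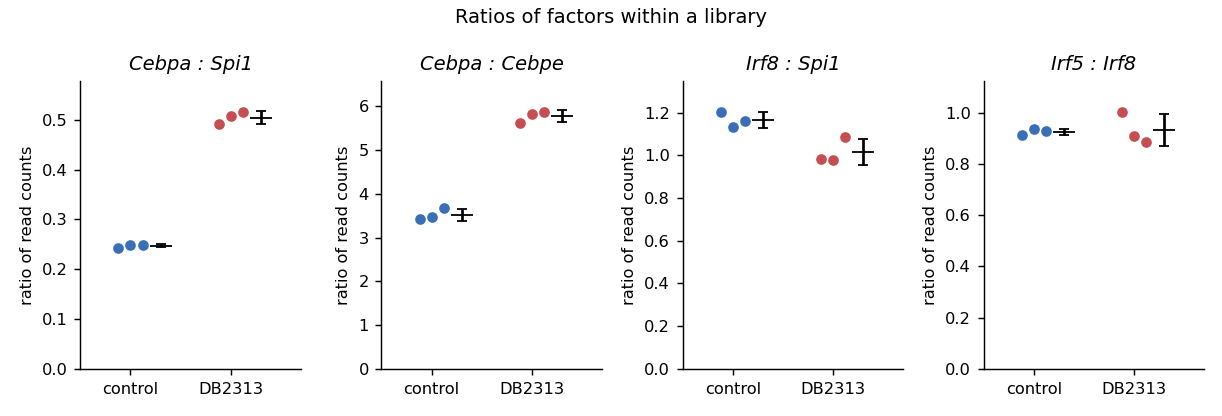
Ratios of read counts of 2 factors within each library (vertical axes, from 0) for control (blue) and DB2313 (red) libraries, with the mean ± SD (n = 3). Cebpa to Spi1 was 0.247 and 0.504 on average and Cebpa to Cebpe 3.52 and 5.77, Irf8 to Spi1 was lower with DB2313, and Irf5 to Irf8 overlapped between the groups.

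The factors were also set against the summed reads of the macrophage markers in the same library. Scaled to 1000 of these marker reads, Spi1 had 18.56, 19.2 and 18.8 reads in the control libraries and 23.4, 23.1 and 22.4 with DB2313, a log2 difference of 0.28. Lyz2 alone gave 50.4% to 51.1% of the marker reads in the control group and 30.6% to 30.8% with DB2313. With Lyz2 left out of the sum, the log2 difference of Spi1 was -0.21 and that of Irf4 -0.49. In both groups Ctsb, Ctsd and Lgals3 were the most abundant of the markers left in that sum. Their log2 fold changes were -0.64, -0.16 and -0.72, smaller falls than the median of the macrophage markers, -0.84. The differences from the marker sums thus depend on which markers are summed. Relative to the macrophage markers, the 4 C/EBP factors and Klf4 lay higher with DB2313 on both counts, at 1.31 with Lyz2 and 0.82 without it for Cebpa, 0.97 and 0.48 for Cebpb, 0.62 and 0.13 for Cebpd, 0.60 and 0.11 for Cebpe, and 0.69 and 0.19 for Klf4. Without Lyz2 the groups overlapped for Cebpd and Klf4. Irf8 and Irf5, like Spi1, lay on either side of 0, at 0.083 and 0.093 with Lyz2 and -0.41 and -0.40 without it. Irf4 relative to all macrophage markers overlapped between the groups, with 7.44 to 7.87 reads in the control libraries and 7.24 to 8.17 with DB2313. Against the T cell markers all 9 factors lay lower with DB2313, from -0.46 for Cebpa to -1.77 for Irf4 on the log2 scale, with no overlap. Most genes did so: with scaling to these markers, 11630 of 14883 tested genes were called lower and 150 higher. Lying lower against the T cell markers is thus not particular to the factors.

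The relatives of each factor were followed as lists chosen from family membership. Scaling to the T cell markers lowers every log2 fold change given here by about 0.61, which takes rises smaller than that below 0. Of 17 other ETS factors 6 were lower and 2 higher, with a median log2 fold change of -0.018, which was above 0 with library size or upper quartile scaling, -0.053 without control replicate 2, -0.032 without control replicate 3 and -0.011 without DB2313 replicate 2. The higher pair, named after their values were seen, were Ets1, a T cell factor, at 0.49 (standard error 0.031) and Elf1 at 0.25 (standard error 0.041). Spib, the closest relative of Spi1, was at 28.0 ± 1.76 and 27.7 ± 1.45 CPM (SD, n = 3 each; adjusted p = 0.869 in edgeR's test). Spic, which iron-recycling macrophages use, was counted at most 35 times in a library and was at -0.79 (standard error 0.32, adjusted p = 0.0489 in edgeR's test). No ETS factor of the list passed the threshold on the fold change.

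Of the 6 other interferon regulatory factors, Irf3, Irf7 and Irf9 were higher and Irf2 was lower with TMM scaling, all named after their values were seen. Irf7, which amplifies the type I interferon response, went from 376 ± 14.8 to 582 ± 15.4 CPM (SD, n = 3 each), a log2 fold change of 0.63 (standard error 0.035, adjusted p = 4.08e-13 in edgeR's test). Irf1 was at -0.0049 (standard error 0.032). The median of the 6 was 0.24 with TMM and -0.36 with scaling to the T cell markers, and it was 0.16 without DB2313 replicate 3 and 0.16 without control replicate 2. Irf4, Irf5 and Irf8 lay below -1 while the other 6 lay between -0.17 and 0.63.

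Of 13 tested other Krüppel-like factors, 3 were higher and Klf6 was lower, with a median of -0.077 that was 0.018 with library size scaling, -0.049 without control replicate 3 and -0.050 without DB2313 replicate 2. Klf2, which keeps naive T cells quiescent, went from 165 ± 5.65 to 252 ± 9.03 CPM, and Klf6 from 279 ± 10.8 to 208 ± 4.62 CPM (SD, n = 3 each). Cebpg was at -0.068 (standard error 0.057), and with 2 genes on this list the median of 0.20 was -0.41 with scaling to the T cell markers. Ddit3, the stress-induced C/EBP relative also called CHOP, was higher with TMM scaling, at 0.46 (standard error 0.065, adjusted p = 2.72e-06 in edgeR's test).

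**Figure D4:**
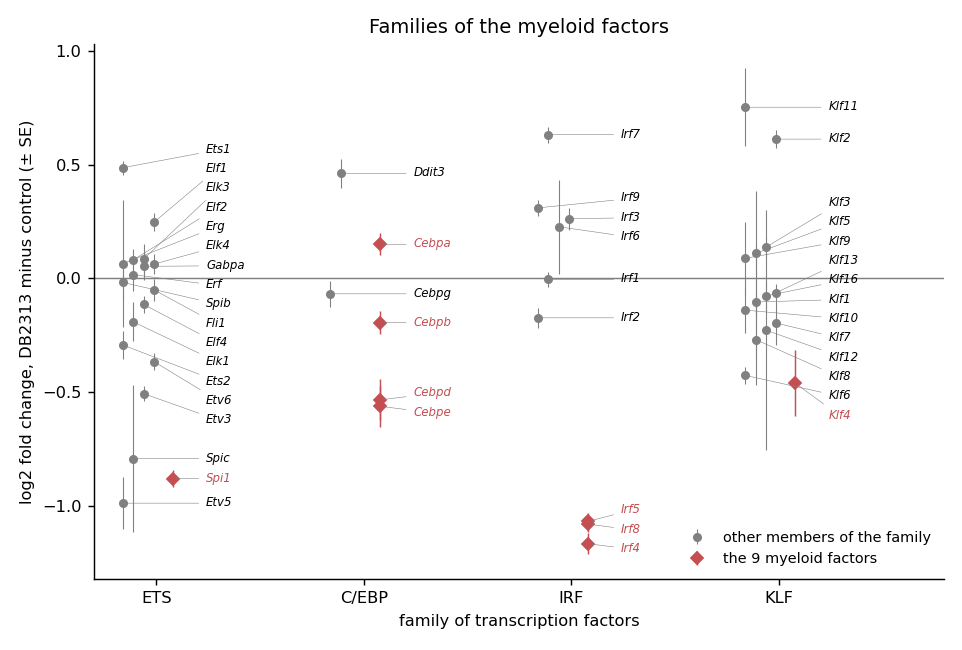
Log2 fold change (vertical axis, DB2313 minus control, TMM scaling, whiskers of 1 standard error) of the 9 factors (red diamonds) and their relatives. The relatives (grey points, spread sideways for legibility) are the tested genes of the family lists, which need not hold every gene of a family. Irf4, Irf5 and Irf8 lie below -1 and the other 6 interferon regulatory factors lie between -0.17 and 0.63. Among the listed ETS factors Etv5, at -0.99, lies below Spi1.

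Other transcription factors of blood progenitors, monocytes and dendritic cells were counted as a list of 28, of which 16 were lower and 4 higher, with a median of -0.36. Zeb2, a repressor needed by myeloid cells, went from 73.4, 78.0 and 80.0 CPM to 38.4, 36.6 and 38.9 CPM, with a log2 fold change of -1.02 (standard error 0.057, adjusted p = 4.25e-13 in edgeR's test), and passed both thresholds. Id2, a partner of dendritic cell development, went from 347 ± 8.13 to 212 ± 0.701 CPM (SD, n = 3 each). The 4 higher factors, named after their values were seen, were Gata1 at 0.68 (standard error 0.082), Gfi1 at 0.60 (standard error 0.088), Myb at 0.42 (standard error 0.061) and Myc at 0.18 (standard error 0.047). Gata1 and Spi1 are known to oppose each other in blood progenitors, and Gfi1 and Myb act in granulocyte progenitors and in T cells. Gata1 was at 22.4 ± 0.377 and 36.0 ± 4.02 CPM (SD, n = 3 each).

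All 26 genes commonly described as targets of Spi1 in myeloid cells, with the C1q genes among them, were lower, and 12 passed the threshold on the fold change, against 24.6% and 5.30% of all tested genes. The list was chosen with earlier results of these data known, and 10 of its genes are also macrophage markers. The other 16, of which 1 is also a neutrophil marker, were all lower as well, with a median of -0.94. The macrophage markers had a median of -0.84, and whether the 16 moved apart from other myeloid RNA was not tested. Of the 26, 15 had a more negative log2 fold change than Spi1 itself, with no test of the difference. The 3 largest falls were in Il1b, an inflammatory cytokine, at -2.08 (standard error 0.15), Cybb, the catalytic chain of the phagocyte oxidase, at -2.002 (standard error 0.036), and Adgre1, the macrophage antigen F4/80, at -1.89 (standard error 0.037). Csf1r, the receptor for macrophage colony-stimulating factor, went from 574, 571 and 575 CPM to 222, 244 and 233 CPM. C1qa, a chain of complement C1q, went from 223, 228 and 246 CPM to 70.7, 69.6 and 72.2 CPM.

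The granule genes commonly described as C/EBP targets moved in both directions: of 11 genes, 8 were lower and 3 were higher, with a median of -1.70. The 3 higher ones were Mpo, Elane and Prtn3, which belong to the primary granules of progenitors, and the 8 lower ones belong to later granules or the cytosol of mature cells. Elane, neutrophil elastase, went from 99.0 ± 3.92 to 217 ± 4.95 CPM, and Mpo, myeloperoxidase, from 148 ± 5.66 to 288 ± 6.44 CPM (SD, n = 3 each). S100a8, a calcium-binding protein of mature neutrophils, was at -2.49 (standard error 0.056), Cd177 at -2.37 (standard error 0.096), and Lcn2, a lipocalin of secondary granules, at -2.22 (standard error 0.045). Ltf, lactoferrin, was at 193 ± 6.81 and 46.3 ± 1.93 CPM (SD, n = 3 each). Cebpa, Mpo, Elane and Prtn3 were higher, and Cebpe and the other 8 granule genes lower, in the same libraries with TMM scaling. Cebpb and Cebpd were lower as well, and Cebpa lay below 0 with scaling to the T cell markers. Whether any of the C/EBP factors and these granule genes are linked was not tested. The progenitor marker Cd34, which is no granule gene, was lower in these libraries, at -3.02 (standard error 0.082, adjusted p = 5.60e-19 in edgeR's test). The neutrophil and progenitor markers share 9 genes with this list in all, so that their shares of counts given above are not separate evidence.

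**Figure D5:**
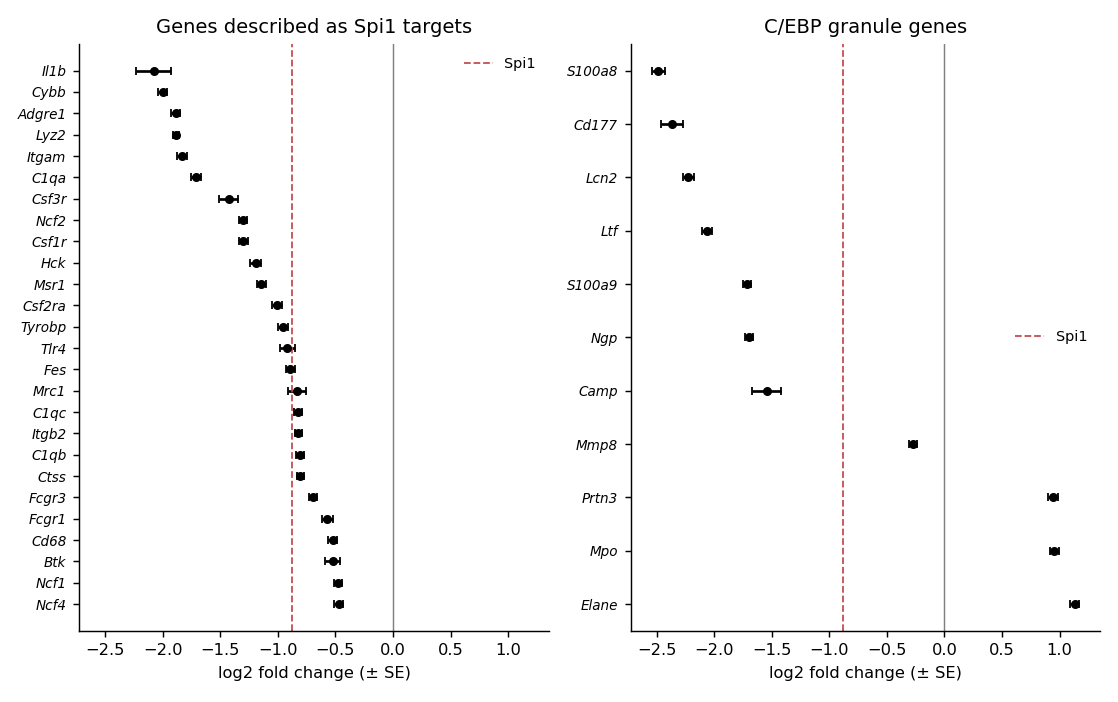
Log2 fold change (horizontal axes, DB2313 minus control, TMM scaling, whiskers of 1 standard error) of genes described as Spi1 targets (left) and of C/EBP granule genes (right). The dashed red line is Spi1 at -0.88; all 26 Spi1 targets lie below 0 and 15 lie beyond Spi1, and on the right Mpo, Elane and Prtn3 lie above 0.

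The genes whose profile over the 6 libraries lay nearest to Spi1 were sought among 9529 other protein-coding genes with at least 10 CPM. By the root mean square difference of log2 CPM centred on each gene's mean, they were Asah1, the lysosomal acid ceramidase, Aatk, Pgd, an enzyme of the pentose phosphate pathway, Anxa4 and Padi4, at distances of 0.010 to 0.030. Near Irf4 lay Sema4a, Ctsc, Msr1 and Wdfy2, at 0.035 to 0.045. The named genes had log2 fold changes close to that of the factor they were compared with, from -0.85 to -0.91 for Spi1 and from -1.10 to -1.20 for Irf4. Choosing genes by this distance over the same libraries makes their fold changes close, so that closeness is no separate result.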

How the data were processed

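The authors deposited raw read counts per gene for 6 libraries of CD8T cells, with gene coordinates, gene lengths and transcription factor families. The submitters' processing notes name CASAVA 1.8, HISAT2 2.0.5 and featureCounts 1.5.0-p3, and the paper's methods name LifeScope for alignment and counting; genome build, annotation and strand setting are not given in the sources used here. Of 54409 genes shared with GENCODE M21, 98.3% had its GRCm38 coordinates, as did all 9 factors.

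Samples were grouped by DB2313 from the labels. The test was the quasi-likelihood test of edgeR 4.0.16 (filterByExpr, TMM, glmQLFit, glmQLFTest) in R 4.3.3 with Benjamini-Hochberg adjustment over 14883 genes. Genes were called at an adjusted p below 0.05, with or without an absolute log2 fold change above 1. Standard errors come from the fitted change and its test, and CPM values use TMM-scaled library sizes. Within groups, pairs of libraries had a chi-square of 2.48 to 3.81 per gene, above the value sampling noise gives, and the common biological coefficient of variation was 4.67%. Where a gene had no count, its upper limit is 3 counts, at most 1.81e-05% of a library, which covers counting error only. The fit was tested on simulated data, where it called 200 of 200 changed genes and 8 unchanged ones among 14856. Recall of changes as small as that of Cebpa was not tested separately. In the real libraries 6763 of 14883 genes were called, and the fit with so many changed genes was not tested.

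The factors and lists were chosen with earlier results of these data known. Named genes are the 9 factors, list genes past both thresholds (the 3 largest rises and 3 largest falls where these exceed 6) with up to 2 more for each list, the most abundant gene of each marker list, and the 5 nearest profiles to Spi1 and to Irf4. Other genes named from the family, pathway and marker lists, such as Irf7, Gata1, Cd34 and Mcpt8, were chosen after their values were seen. Of 2 table rows named Ddit3, the one with counts was used. Alternatives were DESeq2 1.42.0, 3 other scalings, 2 other filters, a replicate block and leaving out each sample. Promoter sequences are from RefSeq (GRCm38.p6). Libraries of CD8T cells alone were not analysed here, and 1 gene that the rule names is not reported here.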

Additional observations from a re-analysis of the deposited data

How the results depend on the processing

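Of 117 values of the 9 factors under the alternatives, 111 stayed past the threshold in the same direction, 5 lost the threshold and 1 reversed. Spi1 stayed between -0.90 and -0.85 when each sample was left out, and was at -0.88 with DESeq2 and -0.79 with library size scaling. Scaling to the T cell markers, which moved the median of all genes to -0.59, turned Cebpa to -0.46, left 0 factors higher and 7 past both thresholds, and gave 150 higher and 11630 lower genes, or 49 and 2605 past both thresholds. It also turned the medians of the other C/EBP factors (-0.41), the other interferon regulatory factors (-0.36), the T cell factors (-0.35) and the B cell markers (-0.14). The median of the T cell markers themselves was -0.0018, near 0 by construction, because these genes set the scale. Library size scaling gave 4931 higher genes, left 1 factor past both thresholds, took Cebpb to -0.10 and turned the medians of the other ETS factors (0.076), the Krüppel-like factors (0.018) and the mast cell markers (0.053), and upper quartile scaling turned those of the ETS factors (0.046) and mast cell markers (0.023). With at least 10 counts in every sample, where fewer genes were tested, 103 genes were higher past both thresholds. With each sample left out, Cebpa ranged from 0.12 to 0.17, Klf4 from -0.57 to -0.28, the mast cell median from -0.082 to 0.014 (above 0 without DB2313 replicate 1), the medians of the other interferon regulatory factors from 0.16 to 0.31, of the other ETS factors from -0.053 to -0.011 and of the other Krüppel-like factors from -0.092 to -0.049, and the eosinophil median from -0.75 to -0.31, and 0 to 1 factors were higher (0 without control replicate 1 or DB2313 replicate 2) and 7 to 8 lower. Causes were not tested.

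Samples with the same replicate number did not deviate together (correlations of 0.014, -0.0039 and 0.019), so the numbers were not taken as pairs. With the replicate block, Spi1 was at -0.88 and Cebpa at 0.15, and no call of the 9 factors changed.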

Other observations

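Transcription factors of T cells, which share the libraries with the myeloid factors, were counted as a list of 17. Of these, 11 were higher and Prdm1 was lower with TMM scaling, with a median log2 fold change of 0.26 that was -0.35 with scaling to the T cell markers. Tcf7, which marks naive and memory T cells, went from 558 ± 18.5 to 819.6 ± 16.2 CPM (SD, n = 3 each), with a log2 fold change of 0.56 (standard error 0.033, adjusted p = 1.25e-12 in edgeR's test). Prdm1, a factor of effector T cells and of macrophages, was at 15.4 ± 1.73 and 11.1 ± 0.639 CPM (SD, n = 3 each), with a log2 fold change of -0.48 (standard error 0.11, adjusted p = 0.00107 in the same test). B cell markers took 0.00497% to 0.00531% of the control counts and 0.00702% to 0.00712% of the DB2313 counts, with Cd79b the most abundant in both groups, and 5 of the 8 rose and Cd22 fell with TMM scaling.

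Among the 883 tested genes with a transcription factor family in the table, 181 were lower and 196 higher, and 28 were lower past both thresholds. By the size of the fall, Irf4 ranked number 24, Irf8 number 25, Irf5 number 27 and Spi1 number 39 of the 883. Mast cell and basophil markers took 0.0832% to 0.0854% of the control counts and 0.0595% to 0.0618% of the DB2313 counts, but moved in both directions: Cpa3 (-1.31), Tpsb2 (-5.40) and Hdc (-0.18) fell and Mcpt8 (0.52) and Fcer1a (0.50) rose with TMM scaling, with a median of -0.041. Cpa3 was the most abundant of them in the control group, at 460.1 CPM, and Mcpt8 with DB2313, at 286 CPM. Eosinophil markers took 0.00809% to 0.00851% and 0.00525% to 0.00577%, with Prg2 the most abundant in both groups, and 2 of the 5 fell.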
